A study of Mus musculus with 12 samples.

Results

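The spindle and cytokinesis genes described here are 36 genes whose products build the mitotic spindle, copy the centriole, move chromosomes and microtubules as kinesin motors, or divide the cell. They were taken by symbol from a deposited expression table of 35709 gene identifiers, and each of the 36 symbols matched a single identifier. By role they are 7 cytokinesis genes, 11 mitotic kinesins, 13 spindle assembly and microtubule-binding genes, 2 mitotic kinases and 3 centriole duplication genes. The samples were hepatocytes that had been purified by Percoll gradient from perfused livers. The mice were C57BL/6J males, 8 to 10 weeks old. Alb-Cre mice carry the Cre recombinase driven by the albumin promoter, which is active in hepatocytes, and Alb-R3 mice are labelled as lacking Fgfr3, a fibroblast growth factor receptor, in hepatocytes alone. The animals received olive oil, or CCl4 in olive oil at 0.4 mg per g body weight, and RNA was sequenced at 48 h. Both genotypes after both treatments make 4 groups of 3 libraries each. The labels number the libraries without tying them to separate animals, so p-values measure the spread between these libraries.

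Adult hepatocytes rest outside the cell cycle and re-enter it after injury, and CCl4 is a classical toxicant that hepatocytes convert to a reactive radical. In mitosis, motors and microtubule-binding proteins shape a bipolar spindle, and at anaphase the central spindle forms, recruits a guanine nucleotide exchange factor for RhoA, and positions the contractile ring that splits the cell. Hepatocytes are known for omitting this last step at times, which leaves binucleate and polyploid cells. Transcription of many mitotic genes is repressed in resting cells through a promoter element called the cell cycle genes homology region, often near CCAAT boxes bound by NF-Y.

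Total signal was 27200000 to 38800000 normalized counts per library. Fgfr3 lay at 734.9 to 988.1 normalized counts in Alb-Cre after oil and at 523.1 to 1109 in those labelled Alb-R3 oil, so the groups overlapped, with the library labelled Alb-R3 oil replicate 3 highest. After CCl4 it was 705.7 to 950.9 in Alb-Cre and 372.1 to 477.7 in Alb-R3, without overlap (log2 difference -0.96 ± 0.24, limma adjusted p = 0.252). Alb-R3 CCl4 replicate 1 stood apart: mitochondrially encoded genes took 32.3% of its signal, against 6.22% to 12.8% in the other libraries. The hepatocyte marker sum was 59300 to 116000 per 1000000 normalized counts over the 12 libraries, and 7 of 8 hepatocyte markers were matched, none of them called in either CCl4 comparison.

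Promoter sequence is shown first. Any link between promoter motifs and the changes below was not tested. RefSeq windows (GRCm38.p6) from 250 bases before to 50 bases after the annotated start were at hand for 33 of the 36 genes; Dlgap5, Tpx2 and Kif20a had none. Shown are 150 bases, from 120 before the start, of 6 genes with matches and of Cit and Numa1, which had the weakest CCl4 responses in their roles and no match. Capitals mark TTTGAA (the cell cycle homology motif) and CCAAT (the NF-Y box) or their reverse complements TTCAAA and ATTGG. Each is printed 5′ to 3′ on the strand of its gene.
Racgap1: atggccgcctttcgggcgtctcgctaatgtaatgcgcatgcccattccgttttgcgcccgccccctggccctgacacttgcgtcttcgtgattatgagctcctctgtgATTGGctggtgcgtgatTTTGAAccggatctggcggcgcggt
Kif23: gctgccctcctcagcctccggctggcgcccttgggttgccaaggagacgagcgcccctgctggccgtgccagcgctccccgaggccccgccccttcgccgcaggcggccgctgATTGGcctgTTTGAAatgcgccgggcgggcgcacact
Prc1: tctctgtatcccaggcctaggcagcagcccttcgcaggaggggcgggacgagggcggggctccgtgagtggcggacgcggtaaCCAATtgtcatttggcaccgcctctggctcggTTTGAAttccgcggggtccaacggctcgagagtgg
Cep55: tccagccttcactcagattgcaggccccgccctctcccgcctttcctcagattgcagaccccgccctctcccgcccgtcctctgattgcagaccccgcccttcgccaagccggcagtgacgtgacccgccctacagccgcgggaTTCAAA
Anln: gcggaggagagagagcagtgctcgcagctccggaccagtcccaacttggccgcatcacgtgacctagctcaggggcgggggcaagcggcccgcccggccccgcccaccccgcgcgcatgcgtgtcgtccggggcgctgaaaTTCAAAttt
Hmmr: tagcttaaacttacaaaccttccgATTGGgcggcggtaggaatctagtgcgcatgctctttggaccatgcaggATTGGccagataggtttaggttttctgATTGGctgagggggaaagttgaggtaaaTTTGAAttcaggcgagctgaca
Cit: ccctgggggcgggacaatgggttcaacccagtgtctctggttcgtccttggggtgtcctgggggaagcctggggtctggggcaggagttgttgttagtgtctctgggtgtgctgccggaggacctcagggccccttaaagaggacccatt
Numa1: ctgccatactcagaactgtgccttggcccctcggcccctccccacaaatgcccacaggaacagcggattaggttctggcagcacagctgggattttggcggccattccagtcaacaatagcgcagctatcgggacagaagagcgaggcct

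The stretches lie at chr15:99651627-99651776 (Racgap1, minus strand), chr9:61946770-61946919 (Kif23, minus strand), chr7:80294331-80294480 (Prc1, plus strand), chr19:38054864-38055013 (Cep55, plus strand), chr9:22389177-22389326 (Anln, minus strand), chr11:40733408-40733557 (Hmmr, minus strand), chr5:115845536-115845685 (Cit, plus strand), chr7:101969723-101969872 (Numa1, plus strand). The RefSeq starts used for Cit and Numa1 lie inside those genes as GENCODE M21 draws them, so their windows do not cover the 5′ ends of the GENCODE genes.

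TTTGAA or its reverse complement occurred in windows of 26 of the 33 genes (78.8%), against 18.6% of the 20153 genes of the table with a window. CCAAT occurred for 20 of 33 (60.6%, against 41.7%), and both motifs shared a window in 19 of 33 (57.6%, against 7.48%). The palindromic variant TTTAAA was present for 8 of 33 (24.2%, against 13.8%). Of the E2F-like motifs, TTGGCGC was found for 3 (9.09%, against 3.4%) and TTCCCGC for 2 (6.06%, against 6.42%). Among the 7 cytokinesis genes, 6 had TTTGAA, with Cit as the exception, and 4 had CCAAT. In Racgap1 the ATTGG and TTTGAA matches began at -12 and 5 bases from the start, in Kif23 at -7 and 2, and in Prc1 the CCAAT and TTTGAA matches began at -37 and -5. Cit, Nusap1, Numa1 and Tacc3 had none of the 5 motifs. Nusap1 and Tacc3 still rose in Alb-Cre, by log2 values of 5.83 and 3.76. Ckap5 and Sass6, with small Alb-Cre changes (1.37 and 1.59), had TTTGAA or its reverse complement. Cit and Numa1 therefore do not stand for all genes without a match. Motifs were searched on both strands, matches may overlap, and a match is a description of letters, not a binding site.

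**Figure D1:**
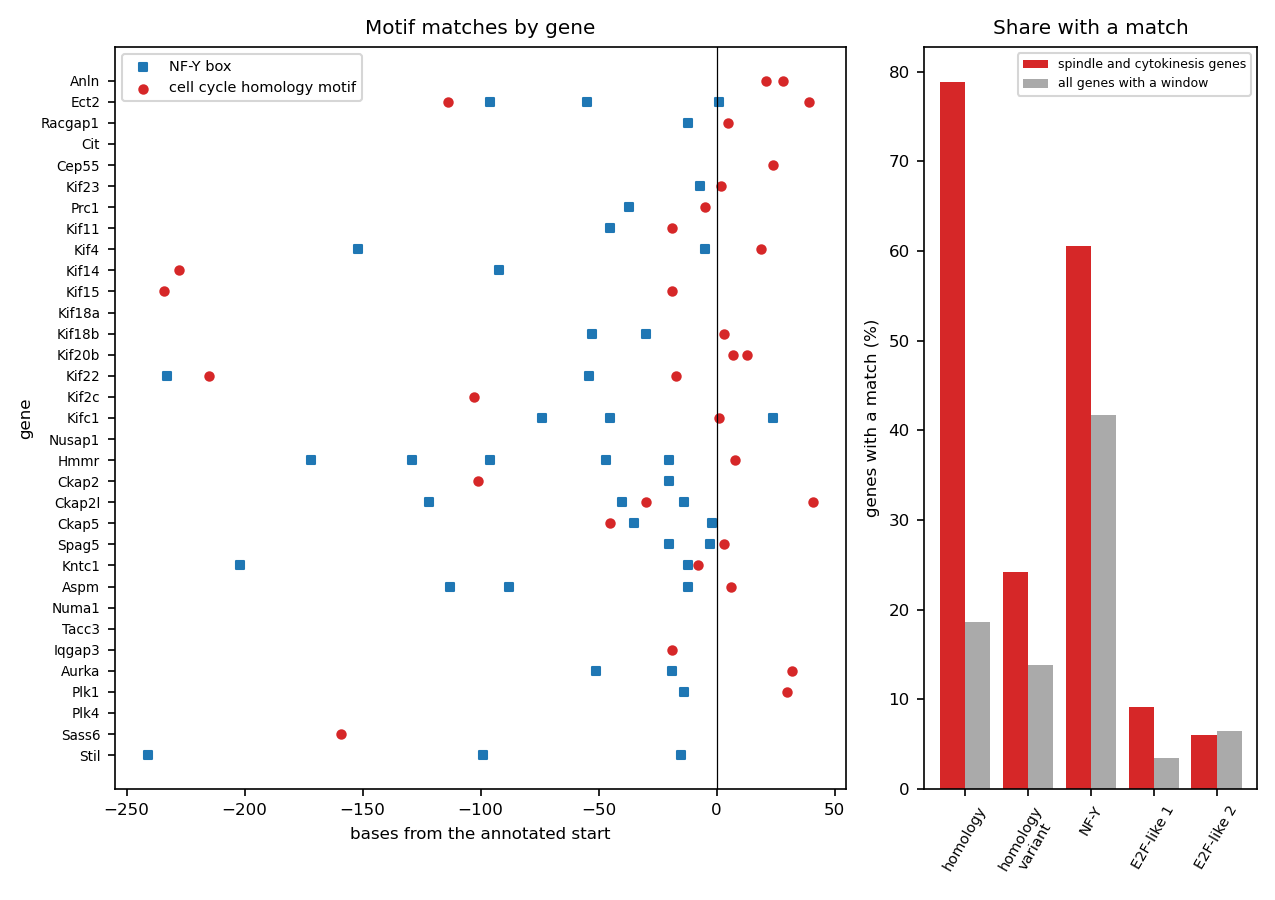
Left, positions of homology motif and NF-Y box matches in the first RefSeq window of each of 33 genes, in bases from the annotated start. Right, the percentage of genes with a match in any window, for the 33 genes (red) and for all 20153 genes of the table with a window (grey); the homology motif was present in 78.8% against 18.6%.

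After oil, 34 of the 36 genes had an FPKM below 1 in all 6 oil libraries, and 14 were listed at 0 in at least 1 of them. FPKM scales fragments for gene length and library size, which lets levels of different genes be compared. The exceptions were Numa1, a nuclear protein that tethers spindle poles to the cell cortex in mitosis, at 16.4 ± 2.16 FPKM (SD, n = 3) in Alb-Cre oil, and the microtubule polymerase gene Ckap5, at a mean of 1.63 FPKM. All 36 genes passed the filter on low values, and 34 of them would have passed on the oil libraries alone. After CCl4 none was listed at 0 in any library.

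In Alb-Cre hepatocytes 33 of the 36 genes rose after CCl4 and 0 fell (limma, Benjamini-Hochberg adjusted over 20244 genes, threshold 0.05), where 4.45% of all genes tested were called and 3.46% were called higher and 0.988% lower. The median log2 change of the 36 genes was 5.56, and that of all genes was 0.02. Those not called were Cit, Ckap5 and Numa1. The CCl4 libraries lay wholly above the oil libraries for 34 genes (13.3% of all genes), the exceptions being Cit and Numa1.

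In Alb-R3 hepatocytes 34 of 36 rose and 0 fell, where 17.8% of all genes were called and 10.9% were called higher and 6.92% lower, with a median log2 change of 6.04 against 0 for all genes. Ckap5 and Numa1 were not called. The groups did not overlap for 33 genes (18.1% of all genes), and overlapped for Ckap5, Numa1 and Sass6. In these bulk samples, fewer cells of a type and less RNA per cell cannot be told apart. Many oil values lie near 0, so the sizes of these changes depend on the pseudocount of 1.

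**Figure D2:**
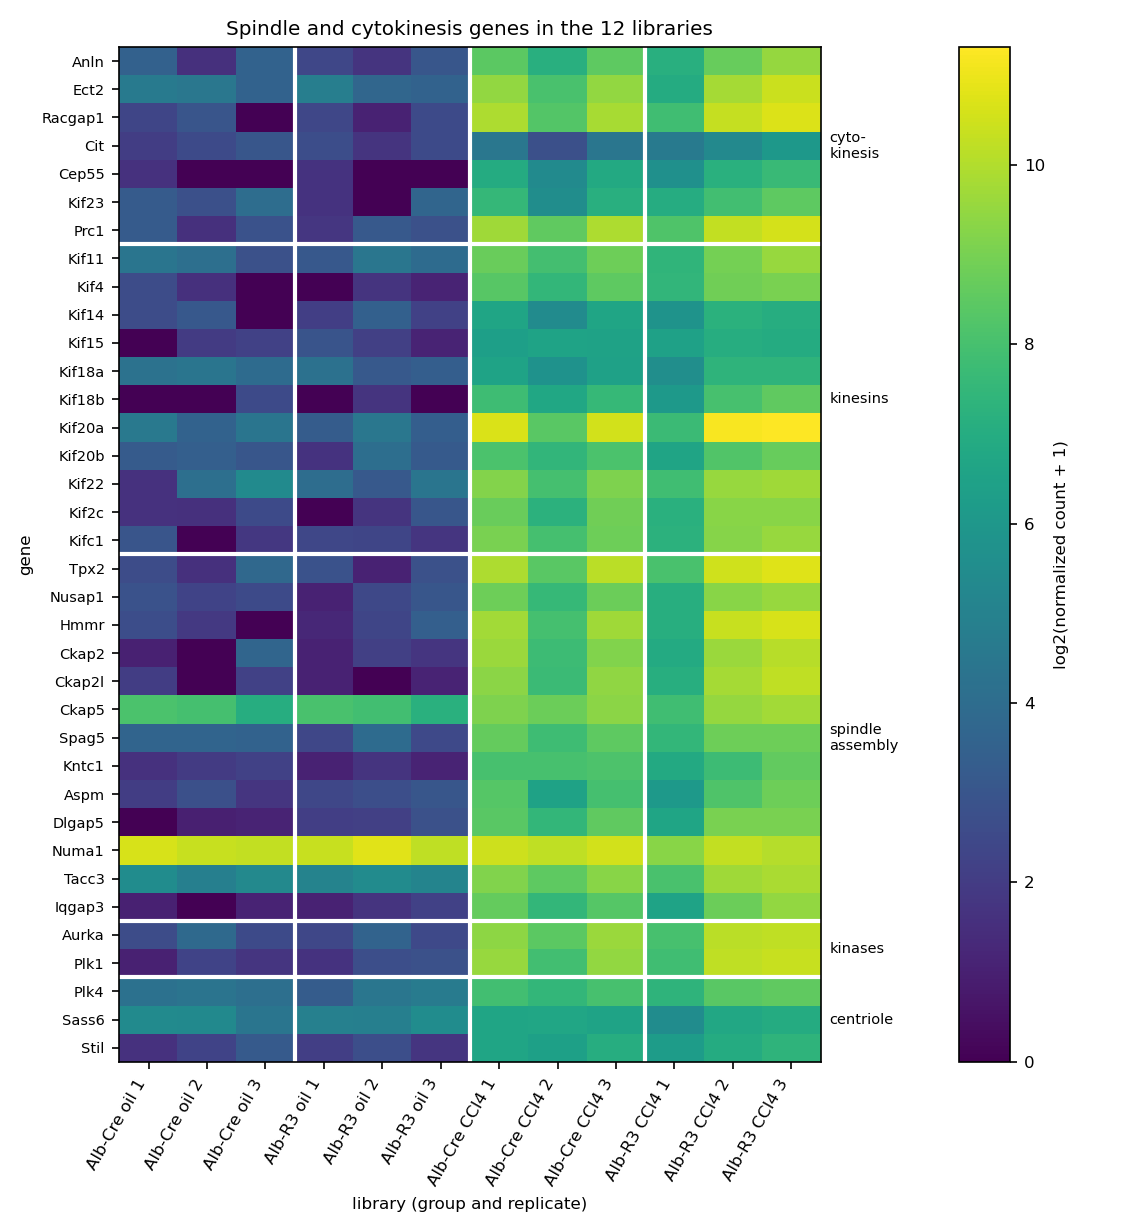
Heat map of log2(normalized count + 1) for the 36 genes (rows, by role) in the 12 libraries (columns, by group). Oil libraries are dark except for Numa1 and Ckap5, CCl4 libraries are bright, and Alb-Cre CCl4 replicate 2 and Alb-R3 CCl4 replicate 1 are dimmer than the other libraries of their groups.

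All 7 cytokinesis genes rose after CCl4 in Alb-R3 and 6 of 7 in Alb-Cre, with median log2 changes of 6.06 and 5.14. Anln (ENSMUSG00000036777, GRCm38 chr9:22332012-22389188, minus strand) encodes anillin, the scaffold that ties actin, myosin and septins together in the contractile ring. Anln in Alb-Cre was measured at 10.55, 1.959 and 10.93 normalized counts after oil and at 347.2, 140.7 and 358.2 after CCl4. Anln in Alb-R3 stood at 4.388, 2.267 and 7.114 after oil and at 140.3, 409.5 and 726.9 after CCl4. Its CCl4 libraries were above all oil libraries in both genotypes. Anln had a log2 change of 5.14 ± 0.67 (SE) in Alb-Cre (limma adjusted p = 0.000369) and 6.06 ± 0.67 in Alb-R3 (adjusted p = 6.04e-05).

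Ect2 (ENSMUSG00000027699, GRCm38 chr3:27097222-27153878, minus strand) encodes the exchange factor that activates RhoA at the division plane. Ect2 in Alb-Cre was measured at 24.15, 21.39 and 10.74 normalized counts after oil and at 722.4, 267.6 and 714.8 after CCl4. Ect2 in Alb-R3 stood at 27.36, 12.47 and 10.64 after oil and at 122.8, 890 and 1368 after CCl4. The CCl4 value of Alb-R3 replicate 1 was several times below those of the others of its group and still above every oil value. Ect2 had a log2 change of 4.79 ± 0.73 (SE) in Alb-Cre (limma adjusted p = 0.0014) and 5.02 ± 0.73 in Alb-R3 (adjusted p = 0.00053).

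Racgap1 (ENSMUSG00000023015, GRCm38 chr15:99620496-99651656, minus strand) and Kif23 (ENSMUSG00000032254, GRCm38 chr9:61915905-61946774, minus strand) encode the partners of centralspindlin, the complex that bundles the central spindle and recruits Ect2. Racgap1 in Alb-Cre was measured at 4.199, 6.837 and 0 normalized counts after oil and at 961.8, 313.4 and 915.2 after CCl4. Racgap1 in Alb-R3 stood at 4.377, 1.133 and 4.88 after oil and at 229, 1274 and 1708 after CCl4. No oil value came near a CCl4 value. Racgap1 had a log2 change of 7.57 ± 0.84 (SE) in Alb-Cre (limma adjusted p = 9.6e-05) and 7.61 ± 0.84 in Alb-R3 (adjusted p = 6.04e-05). Racgap1 reached 18.8 ± 9.86 FPKM in Alb-Cre CCl4 and 28.5 ± 21.7 in Alb-R3 CCl4 (SD, n = 3), the highest cytokinesis gene in both.

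Kif23 in Alb-Cre was measured at 8.399, 5.839 and 15.51 normalized counts after oil and at 185.4, 46 and 138.8 after CCl4. Kif23 in Alb-R3 stood at 2.189, 0 and 11.83 after oil and at 127.9, 238.1 and 363.1 after CCl4. The oil values of Kif23 varied widely in Alb-R3, including a library listed at 0, and none overlapped the CCl4 values. Kif23 had a log2 change of 3.39 ± 0.8 (SE) in Alb-Cre (limma adjusted p = 0.0282) and 6.02 ± 0.8 in Alb-R3 (adjusted p = 0.000261). Kif23 missed the threshold in Alb-Cre when oil replicate 1 or 2, or CCl4 replicate 1 or 3, of that genotype was left out (limma adjusted p = 0.093, 0.0981, 0.113 and 0.103). With all libraries kept it also missed the threshold with quantile scaling (limma adjusted p = 0.0565) and without the variance trend (0.0648). The same held without the filter on low values (0.0543) and with a pseudocount of 0.1 (0.165).

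Prc1 (ENSMUSG00000038943, GRCm38 chr7:80294450-80316259, plus strand) encodes the crosslinker of antiparallel microtubules in the central spindle. Prc1 in Alb-Cre was measured at 8.399, 1.944 and 6.141 normalized counts after oil and at 828.4, 371.2 and 962.5 after CCl4. Prc1 in Alb-R3 stood at 2.455, 7.933 and 6.086 after oil and at 293.8, 1233 and 1554 after CCl4. Every CCl4 library exceeded every oil library. Prc1 had a log2 change of 6.84 ± 0.64 (SE) in Alb-Cre (limma adjusted p = 3e-05) and 7.1 ± 0.64 in Alb-R3 (adjusted p = 1.3e-05).

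Cep55 (ENSMUSG00000024989, GRCm38 chr19:38055011-38074423, plus strand) encodes the midbody protein that recruits the membrane-cutting machinery for abscission. Cep55 in Alb-Cre was measured at 2.1, 0 and 0 normalized counts after oil and at 125.4, 42.32 and 118 after CCl4. Cep55 in Alb-R3 stood at 2.189, 0 and 0 after oil and at 50.55, 142.8 and 205.2 after CCl4. In each genotype 2 oil libraries were listed at 0 and the CCl4 libraries were clearly above them. Cep55 had a log2 change of 5.89 ± 0.71 (SE) in Alb-Cre (limma adjusted p = 0.000187) and 6.29 ± 0.71 in Alb-R3 (adjusted p = 7.36e-05).

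Cit (ENSMUSG00000029516, GRCm38 chr5:115845278-116008947, plus strand) encodes citron kinase, which stabilises the midbody. Cit in Alb-Cre was measured at 3.152, 4.892 and 7.174 normalized counts after oil and at 21.4, 5.727 and 20.79 after CCl4. Cit in Alb-R3 stood at 5.478, 2.268 and 4.744 after oil and at 23.65, 38.89 and 65.07 after CCl4. Alb-Cre CCl4 replicate 2 lay within the range of the Alb-Cre oil libraries, whereas the Alb-R3 groups did not overlap. Cit had a log2 change of 1.35 ± 0.58 (SE) in Alb-Cre (limma adjusted p = 0.255) and 3.02 ± 0.58 in Alb-R3 (adjusted p = 0.00363). Cit was the lowest of the 36 genes in both CCl4 groups, at 0.172 ± 0.1 FPKM in Alb-Cre and 0.465 ± 0.276 in Alb-R3 (SD, n = 3).

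**Figure D3:**
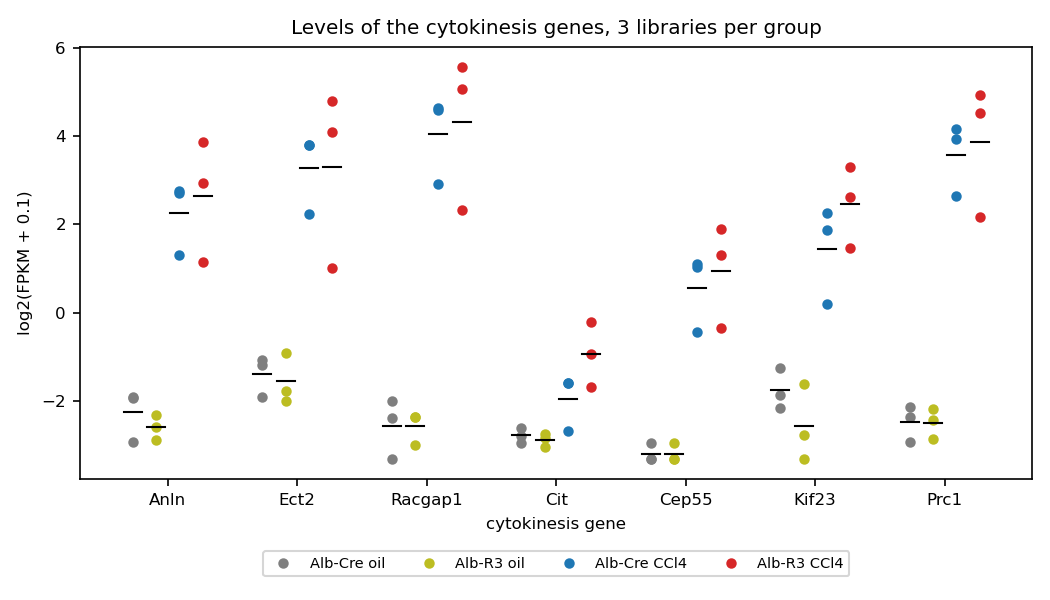
FPKM of the 7 cytokinesis genes on a log2 scale with 0.1 added, with a point for each library and a bar for the mean of the log2 values of each group. Racgap1 and Prc1 reached the highest levels after CCl4 and Cit the lowest, and the lowest CCl4 point of each gene is Alb-Cre CCl4 replicate 2 or Alb-R3 CCl4 replicate 1.

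All 11 mitotic kinesins rose in both genotypes, with median log2 changes of 5.11 in Alb-Cre and 5.18 in Alb-R3. The largest Alb-Cre changes were those of Kifc1 and Kif4 and the smallest that of Kif18a. Kifc1 encodes a minus-end-directed motor that focuses spindle poles, and its estimate is uncertain because mouse has a close paralog, Kifc5b. Kifc1 in Alb-Cre was measured at 6.833, 0 and 2.608 normalized counts after oil and at 518.5, 249.5 and 456.4 after CCl4. Kifc1 in Alb-R3 stood at 4.311, 4.158 and 2.365 after oil and at 155.8, 610 and 755.7 after CCl4. The groups were far apart in each genotype. Kifc1 had a log2 change of 7.0 ± 0.71 (SE) in Alb-Cre (limma adjusted p = 4.96e-05) and 6.53 ± 0.71 in Alb-R3 (adjusted p = 5.1e-05).

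Kif4 encodes a chromokinesin that works with Prc1 on the central spindle. Kif4 in Alb-Cre was measured at 5.249, 1.944 and 0 normalized counts after oil and at 326.7, 180.7 and 366.5 after CCl4. Kif4 in Alb-R3 stood at 0, 2.267 and 1.183 after oil and at 175.4, 468.8 and 525.7 after CCl4. An oil library was listed at 0 in each genotype. Kif4 had a log2 change of 6.73 ± 0.67 (SE) in Alb-Cre (limma adjusted p = 4.71e-05) and 7.52 ± 0.67 in Alb-R3 (adjusted p = 1.3e-05). Kif18a encodes a motor that dampens chromosome movements at the spindle equator. Kif18a in Alb-Cre was measured at 18.01, 19.99 and 14.37 normalized counts after oil and at 93.35, 53.94 and 88.66 after CCl4. Kif18a in Alb-R3 stood at 17.67, 7.964 and 9.479 after oil and at 47.76, 162.8 and 164.3 after CCl4. The groups did not overlap in either genotype. Kif18a had a log2 change of 2.08 ± 0.48 (SE) in Alb-Cre (limma adjusted p = 0.0256) and 3.19 ± 0.48 in Alb-R3 (adjusted p = 0.000708). The Alb-Cre call for Kif18a was lost without any of the Alb-Cre oil libraries (limma adjusted p = 0.0781, 0.0555 and 0.0842 without replicates 1, 2 and 3), without Alb-Cre CCl4 replicate 1 (0.0969) and without Alb-Cre CCl4 replicate 3 (0.0982). With all libraries kept it was lost with quantile scaling (0.113) and with the replicate number added to the model (0.0569).

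The other kinesins changed by log2 values from 4.32 (Kif14, which acts with citron kinase at the midbody) to 6.52 (Kif18b, which shortens astral microtubules) in Alb-Cre. Kif20a, which carries the chromosomal passenger complex to the central spindle, was the most abundant kinesin after CCl4, at a mean of 16.7 FPKM in Alb-Cre and 25.4 in Alb-R3. Its log2 change was 5.7 ± 0.84 in Alb-Cre and 6.36 ± 0.84 in Alb-R3. Kif11, the motor that pushes spindle poles apart, changed by 4.71 and 4.8, and Kif15, which can back it up, by 5.11 and 4.75. The depolymerase gene Kif2c changed by 6.37 and 7.02, the chromokinesin gene Kif22 by 5.04 and 5.18, and Kif20b, a relative of Kif20a, by 4.67 and 4.87.

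Of the 13 spindle assembly and microtubule-binding genes 11 rose in each genotype, with median log2 changes of 6.13 in Alb-Cre and 6.44 in Alb-R3. Hmmr encodes a microtubule-binding protein of the spindle poles and had the largest Alb-Cre change of the 36 genes. Hmmr in Alb-Cre was measured at 5.373, 2.659 and 0 normalized counts after oil and at 867.2, 247.9 and 830.1 after CCl4. Hmmr in Alb-R3 stood at 1.36, 4.217 and 9.621 after oil and at 134.1, 1308 and 1571 after CCl4. The CCl4 values spanned a wide range in Alb-R3, with replicate 1 lowest, and did not reach down to the oil values. Hmmr had a log2 change of 7.63 ± 0.93 (SE) in Alb-Cre (limma adjusted p = 0.000215) and 7.01 ± 0.93 in Alb-R3 (adjusted p = 0.000267).

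Dlgap5 encodes a protein that stabilises kinetochore fibres. Dlgap5 in Alb-Cre was measured at 0, 0.9722 and 1.193 normalized counts after oil and at 346.6, 178.4 and 377.3 after CCl4. Dlgap5 in Alb-R3 stood at 3.283, 3.403 and 5.916 after oil and at 98.25, 532.6 and 520 after CCl4. Its oil values were lower in all 3 Alb-Cre libraries than in any Alb-R3 library. Dlgap5 had a log2 change of 7.46 ± 0.61 (SE) in Alb-Cre (limma adjusted p = 1.23e-05) and 5.9 ± 0.61 in Alb-R3 (adjusted p = 3.39e-05). Numa1 was the exception among these genes. Numa1 in Alb-Cre was measured at 1596, 1303 and 1243 normalized counts after oil and at 1417, 1196 and 1491 after CCl4. Numa1 in Alb-R3 stood at 1327, 1765 and 1196 after oil and at 627.2, 1234 and 1080 after CCl4. The Numa1 groups overlapped in both genotypes, with Alb-R3 CCl4 replicate 1 lowest of all 12. Numa1 had a log2 change of -0.01 ± 0.24 (SE) in Alb-Cre (limma adjusted p = 0.995) and -0.58 ± 0.24 in Alb-R3 (adjusted p = 0.109).

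Ckap5 also had high oil levels. Ckap5 in Alb-Cre was measured at 277.2, 250.8 and 130.1 normalized counts after oil and at 555.2, 441.5 and 644.1 after CCl4. Ckap5 in Alb-R3 stood at 265.9, 234.6 and 143.1 after oil and at 225.9, 734.7 and 851.1 after CCl4. The Alb-Cre groups did not overlap, while Alb-R3 CCl4 replicate 1 fell among the oil values. Ckap5 had a log2 change of 1.37 ± 0.44 (SE) in Alb-Cre (limma adjusted p = 0.111) and 1.32 ± 0.44 in Alb-R3 (adjusted p = 0.0543). Without Alb-R3 CCl4 replicate 1 Ckap5 was called in both genotypes (log2 change 1.37, limma adjusted p = 0.0106 in Alb-Cre, through the pooled spread, and 1.93, adjusted p = 0.00138 in Alb-R3).

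The remaining genes of this role rose in both genotypes. Ckap2l, a spindle protein related to Ckap2, had the largest Alb-R3 change of the 36, 8.31 ± 0.82, and stood at 7.42 ± 0.82 in Alb-Cre. Ckap2 changed by 7.27 and 7.22 in Alb-Cre and Alb-R3, and the scaffold gene Iqgap3 by 7.44 and 6.61. Tpx2, the activator of Aurora A on the spindle, changed by 6.82 and 7.54. Kntc1, part of a kinetochore complex that recruits dynein, had the smallest limma p of the 36 in both comparisons, with changes of 6.13 ± 0.43 and 6.44 ± 0.43. Changes were 5.83 and 6.46 for Nusap1, a microtubule bundler, and 5.41 and 4.98 for Aspm, a spindle pole protein. Spag5, which encodes astrin of the kinetochore, changed by 4.69 and 5.4. Tacc3, a stabiliser of kinetochore fibres, changed by 3.76 and 4.01, the smallest among those called in this role.

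Both mitotic kinases rose. Aurka encodes Aurora A, which matures centrosomes. Aurka in Alb-Cre was measured at 5.249, 13.61 and 4.773 normalized counts after oil and at 673.8, 355.7 and 779.6 after CCl4. Aurka in Alb-R3 stood at 4.377, 11.33 and 4.731 after oil and at 261, 1145 and 1200 after CCl4. Oil and CCl4 libraries were far apart. Aurka had a log2 change of 6.15 ± 0.59 (SE) in Alb-Cre (limma adjusted p = 3.6e-05) and 6.62 ± 0.59 in Alb-R3 (adjusted p = 1.23e-05). Plk1 encodes Polo-like kinase 1, which acts from mitotic entry to the recruitment of Ect2. Plk1 in Alb-Cre was measured at 1.05, 3.889 and 2.387 normalized counts after oil and at 757.4, 237.9 and 712.3 after CCl4. Plk1 in Alb-R3 stood at 2.189, 5.667 and 5.913 after oil and at 228, 1189 and 1336 after CCl4. It was again lowest in Alb-Cre CCl4 replicate 2 and Alb-R3 CCl4 replicate 1 among the CCl4 libraries. Plk1 had a log2 change of 7.29 ± 0.66 (SE) in Alb-Cre (limma adjusted p = 2.43e-05) and 7.08 ± 0.66 in Alb-R3 (adjusted p = 1.87e-05).

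All 3 centriole duplication genes rose in both genotypes, Sass6 only close to the threshold, with the lowest role medians, 3.54 in Alb-Cre and 3.98 in Alb-R3. Plk4 encodes the kinase that starts centriole duplication. Plk4 in Alb-Cre was measured at 17.91, 19.49 and 16.8 normalized counts after oil and at 235.4, 179.9 and 255.4 after CCl4. Plk4 in Alb-R3 stood at 8.793, 20.64 and 25.21 after oil and at 165.1, 345.3 and 380.1 after CCl4. The groups did not overlap. Plk4 had a log2 change of 3.54 ± 0.4 (SE) in Alb-Cre (limma adjusted p = 0.000102) and 3.98 ± 0.4 in Alb-R3 (adjusted p = 2.83e-05). Stil encodes the Plk4 substrate that builds the new centriole with Sass6. Stil in Alb-Cre was measured at 2.1, 3.889 and 8.354 normalized counts after oil and at 99.17, 84.64 and 129.7 after CCl4. Stil in Alb-R3 stood at 3.283, 5.667 and 2.365 after oil and at 74.28, 123.1 and 161.1 after CCl4. Its CCl4 values lay above all oil values. Stil had a log2 change of 4.32 ± 0.48 (SE) in Alb-Cre (limma adjusted p = 9.7e-05) and 4.65 ± 0.48 in Alb-R3 (adjusted p = 3.41e-05).

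Sass6 encodes the protein of the centriole cartwheel. Sass6 in Alb-Cre was measured at 41.81, 40.35 and 20.09 normalized counts after oil and at 100.3, 104.2 and 94.08 after CCl4. Sass6 in Alb-R3 stood at 29.36, 28.68 and 44.12 after oil and at 43.81, 109 and 123.9 after CCl4. In Alb-R3 the replicate 1 CCl4 value fell just below the highest oil value. Sass6 had a log2 change of 1.59 ± 0.41 (SE) in Alb-Cre (limma adjusted p = 0.0442) and 1.31 ± 0.41 in Alb-R3 (adjusted p = 0.0429). Both Sass6 calls are close to the threshold: limma adjusted p ranged up to 0.154 in Alb-Cre when single libraries were left out, and up to 0.144 in Alb-R3. With quantile scaling of all libraries it was 0.196 in Alb-Cre and 0.374 in Alb-R3. Of the alternative fits, 16 lost the Sass6 call in Alb-Cre and 15 in Alb-R3.

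**Figure D4:**
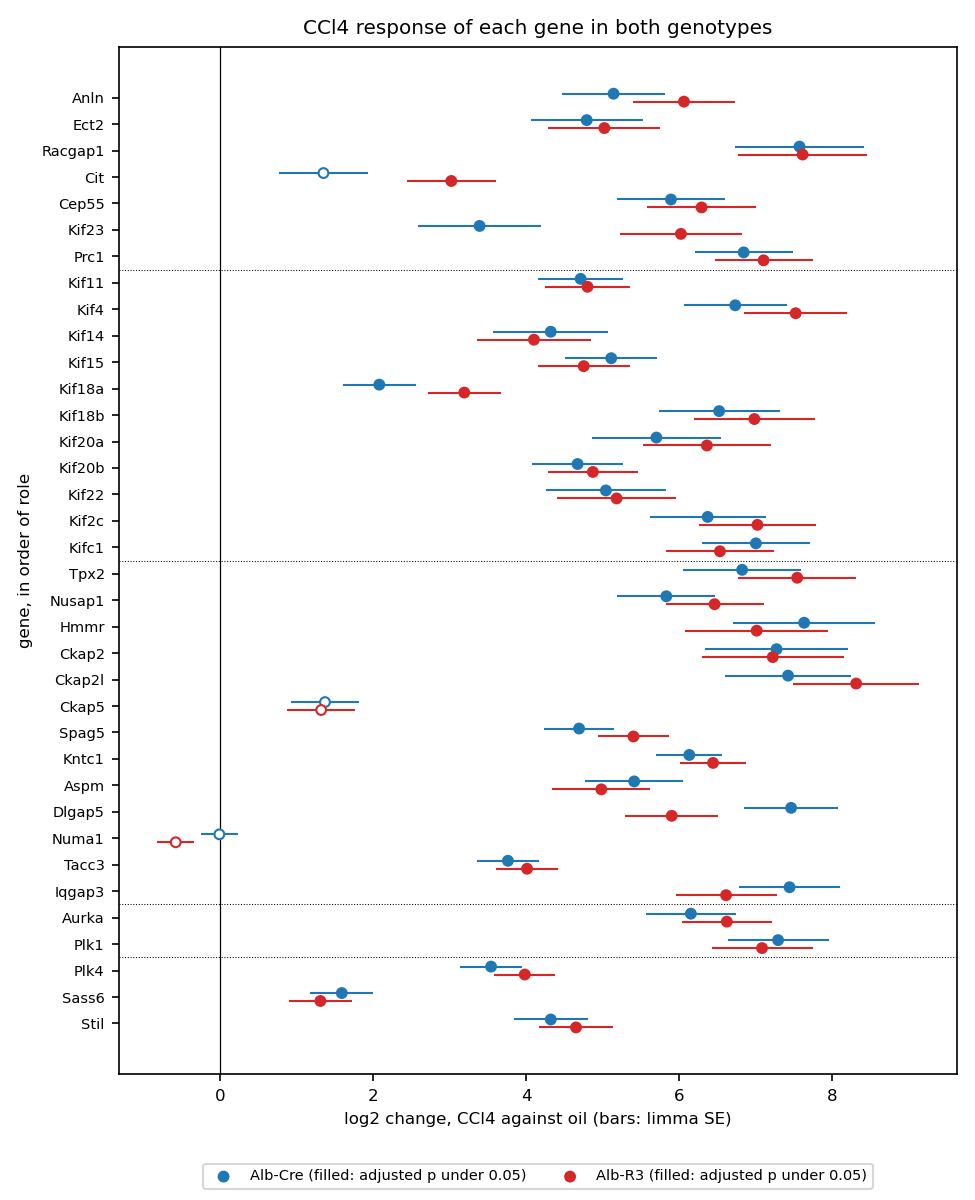
log2 change after CCl4 with its limma standard error for each gene, by role from cytokinesis (top) to centriole duplication (bottom), in Alb-Cre (blue) and Alb-R3 (red); filled points passed an adjusted p of 0.05. Numa1, Ckap5, Sass6 and, in Alb-Cre, Cit lie nearest to 0.

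Set beside the other 29 genes, the cytokinesis genes had a lower median change in Alb-Cre and a slightly higher one in Alb-R3. Their median log2 change was 5.14 against 5.7 in Alb-Cre, a difference of -0.56, and 6.06 against 5.9 in Alb-R3, a difference of 0.16. Across single CCl4 libraries, each set against the mean of its oil group, these differences had an SD of 0.11 and 0.47. This SD leaves out the spread of the oil libraries. Without Alb-Cre oil replicate 1, 2 or 3 the Alb-Cre difference was -0.45, -0.78 and -0.34. On the FPKM scale, log2(FPKM + 0.1) medians of the cytokinesis genes minus those of the other genes were -0.15, -0.48 and -0.21 in the Alb-Cre CCl4 libraries and -0.02, -0.35 and 0.33 in the Alb-R3 CCl4 libraries. In Alb-R3 the direction of the difference in median change turned with the pseudocount, to -0.31 with 5 in place of 1 (1.14 with 0.1). In Alb-Cre the median change of the cytokinesis genes stayed below that of the pooled 29 others under each alternative tried (-1.01 to -0.26). By role the picture differed. In Alb-Cre 5.14 lay beside 5.11 for the mitotic kinesins and below 6.13 for the spindle assembly genes. Kinases and centriole genes had 6.72 and 3.54. In Alb-R3 6.06 lay above 5.18 for the kinesins and below 6.44 for the spindle assembly genes. Kinases and centriole genes had 6.85 and 3.98 there. These are descriptions over genes chosen with results known, and no test was made of them.

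Summed over the 36 genes, signal was 41.9 to 63.9 per 1000000 in the oil libraries, much of it from Numa1. It was 607, 255 and 615 per 1000000 in Alb-Cre CCl4 and 159, 803 and 1040 in Alb-R3 CCl4. The 7 cytokinesis genes alone summed to 0.73 to 1.72 per 1000000 after oil, to 109, 37.0 and 112 in Alb-Cre CCl4, and to 27.8, 146 and 220 in Alb-R3 CCl4. Replicate 2 of Alb-Cre and replicate 1 of Alb-R3 were thus the low libraries, and they are singled out here after these values were seen.

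Alb-Cre CCl4 replicate 2 was the lowest of its group for 33 of the 36 genes, against 38.6% of 14516 genes with enough signal. Its median ratio to the mean of the other libraries of the group was 0.465 over the 36 genes and 0.976 over all genes. By gene the ratio ran from 0.215 for Kif20a to 1.07 for Sass6, with Kif15 at 1.06 and Kntc1 at 0.972. The cytokinesis genes had a median ratio of 0.348, the other 29 genes 0.512 and the centriole genes 0.74.

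Alb-R3 CCl4 replicate 1 was the lowest of its group for all 36 genes (46.0% of 14555 genes), with a median ratio of 0.257 against 0.949 over all genes. Kif20a was again lowest, at 0.0857, and Kif15 highest, at 0.68. Cytokinesis genes (0.247) and the others (0.267) were close in this library, and the centriole genes again a higher one (0.455). The same library had the highest share of mitochondrial signal and the highest Kupffer cell marker sum, 391 per 1000000, against 89.6 and 123 in the other libraries of Alb-R3 CCl4. Its hepatocyte marker sum was the lowest of the 12 libraries, 59300 per 1000000 against 113000 in each of the others of its group. By gene, Alb (1133000 normalized counts against 2362000 and 2335000), Cps1 and Hnf4a were lowest of the group in this library. Fgb (256700 against 130900 and 104000) and Apoa1 were highest, and Ttr and Serpina1c lay between the others. Its monocyte (119) and cholangiocyte (175) sums were the highest. Most of the cholangiocyte sum was Spp1 (5354 normalized counts) and Sox9 (855.2). Krt19, Krt7 and Epcam stood at 4.127, 1.078 and 1.032. The part of these marker and mitochondrial differences in its low values was not tested.

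**Figure D5:**
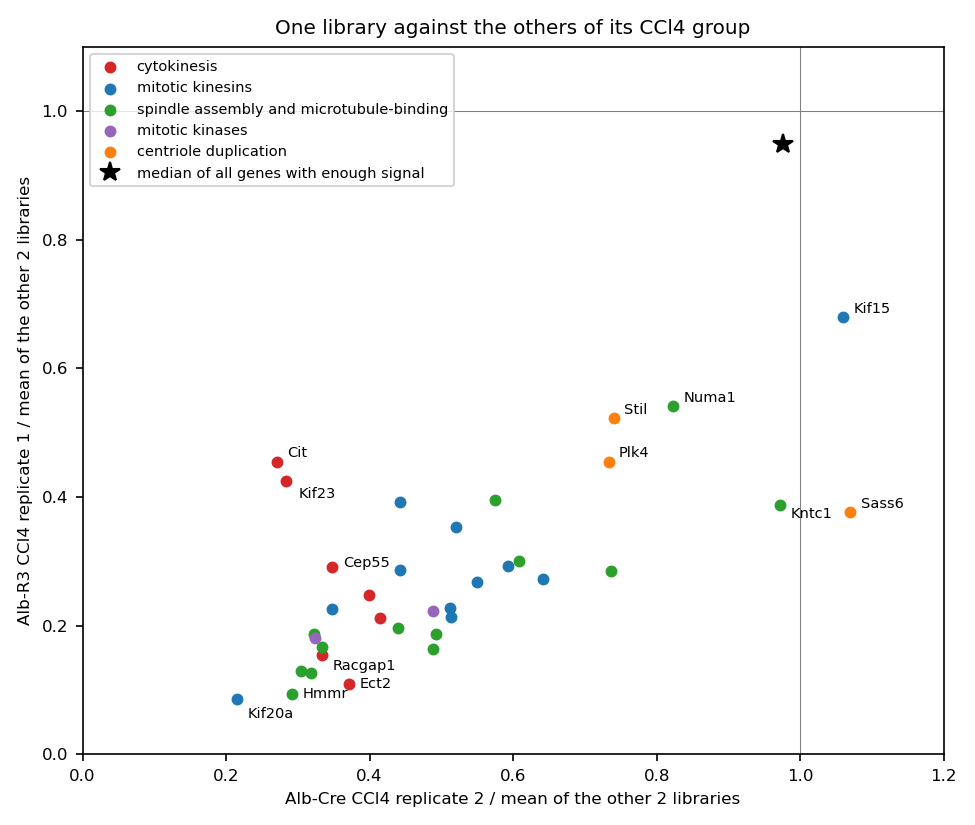
For each gene, the value in Alb-Cre CCl4 replicate 2 (horizontal) and in Alb-R3 CCl4 replicate 1 (vertical) as a ratio to the mean of the other libraries of the same group, coloured by role. The star is the median of all genes (0.976 and 0.949); nearly all 36 genes lie below it on both axes, with Kif20a lowest and Kif15 and Sass6 farthest right.

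Between the genotypes, none of the 36 genes was called after oil, where 0.207% of all genes were, and the median log2 difference of Alb-R3 from Alb-Cre was -0.06. At an unadjusted p under 0.05 there was 1 gene, Dlgap5 (log2 difference 1.64, 95% confidence interval 0.32 to 2.95, limma adjusted p = 0.545), against 1314 of all 20244 genes. Dlgap5 was also the gene whose oil groups did not overlap, 1 of 36 where 5.66% of all genes were higher in this way. With limma's library weights Dlgap5 was called (1.98, adjusted p = 0.0149). Its oil values were near 0, from 0 to 1.193 normalized counts in Alb-Cre and 3.283 to 5.916 in Alb-R3. The size of this difference therefore depends on the pseudocount. Kif23 had the largest difference the other way, -1.57 (95% confidence interval -3.29 to 0.16, limma adjusted p = 0.836).

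After CCl4 none of the 36 was called between the genotypes either (0.173% of all genes), and the median log2 difference was 0.22, positive for 31 genes. The unadjusted p was under 0.05 for 2 genes, and for 1573 of 20244 genes overall. Cit was higher in each Alb-R3 library than in any Alb-Cre library (log2 difference 1.44, 95% confidence interval 0.17 to 2.7, limma adjusted p = 0.56), and Numa1 had the lowest value, -0.53 (-1.04 to -0.02, adjusted p = 0.617). Cit was the gene without overlap, 1 of 36 where 6.16% of all genes were higher in this way. The sign of the median and the count of positive genes rested on single libraries, with 8 genes positive without Alb-Cre CCl4 replicate 2, and 13 and 8 positive when replicate 2 or 3 of Alb-R3 CCl4 was left out. The median was -0.16 without Alb-Cre CCl4 replicate 2, -0.05 and -0.2 without Alb-R3 CCl4 replicates 2 and 3, and 0.94 without Alb-R3 CCl4 replicate 1.

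The test of a genotype difference in the CCl4 response called 0 of the 36 genes, and 0% of all genes, with 1516 of all genes at an unadjusted p under 0.05. Kif23 was the 1 gene among the 36 at that level (2.63, 95% confidence interval 0.19 to 5.07, limma adjusted p = 0.611). Its log2 differences of Alb-R3 from Alb-Cre were -1.57 after oil and 1.07 after CCl4. The larger part thus came from low oil values, with an Alb-R3 library listed at 0, and depends on the pseudocount. The 7 cytokinesis genes had positive differences, from 0.04 for Racgap1 to 2.63 for Kif23, and 17 of the other 29 did. These counts rested on single libraries: 24 of the 36 genes were positive (median 0.25), but this fell to 16 without Alb-Cre CCl4 replicate 2 (median -0.09), and with replicate 1, 2 or 3 of Alb-R3 CCl4 left out 33, 18 and 14 were (medians 0.88, 0.0 and -0.15). The intervals are wide: for Racgap1 it ran from -2.52 to 2.61, and for Plk1 from -2.22 to 1.81. A missed threshold here does not show that the genotypes respond alike.

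Other genes of the same machinery were followed as lists. The counts below stand beside 3.46% of all genes called higher in Alb-Cre and 10.9% in Alb-R3. The shares called lower were 0.988% and 6.92%. Of 28 genes of the passenger complex, contractile ring and abscission 7 rose in Alb-Cre and 12 in Alb-R3, and 0 fell. The passenger kinase gene Aurkb led them (log2 changes 6.49 ± 0.46 and 6.59 ± 0.46), followed by Birc5, the survivin gene of the same complex (5.62 ± 0.55 and 6.2 ± 0.55). The median change of that list was 0.22 in Alb-Cre and 0.46 in Alb-R3. Septin2 and Myl12b matched more than 1 identifier and were left out.

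Of 36 centriole, centrosome and gamma-tubulin genes 9 rose in Alb-Cre and 13 in Alb-R3, and 0 fell. Nek2, a kinase that separates centrosomes, changed by 3.8 ± 0.58 and 4.02 ± 0.58, and the centriole gene Poc1a by 2.18 ± 0.3 and 2.4 ± 0.3. The list medians were 0.5 and 0.43.

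Among 30 other kinesin genes tested, 2 rose in Alb-Cre, the kinetochore motor gene Cenpe (6.86 ± 0.72) and Kifc3 (1.17 ± 0.2). In Alb-R3 5 rose and 3 fell, where 10.9% of all genes were called higher and 6.92% lower. Cenpe (7.02 ± 0.72) and Kif5c (4.57 ± 0.74) led the rises, and Kif5c was listed at 0 in each Alb-R3 oil library, so its size depends on the pseudocount. Kif26b fell by 2.92 and Kifc2 fell by 1.63. Kif26b was listed at 0 in all 3 Alb-R3 CCl4 libraries, so its size depends on the pseudocount as well. Of 31 microtubule dynamics and dynein genes 2 rose in Alb-Cre, Stmn1, the tubulin-binding stathmin gene (4.46 ± 0.44), and the dynein light chain gene Dynll1 (1.49 ± 0.38). Counts this small stand close to the 3.46% of all genes called higher in Alb-Cre. In Alb-R3 6 rose, led by the same genes (4.4 ± 0.44 and 1.61 ± 0.38), and Dctn2, a dynactin gene, fell by 0.47. None of these lists had a gene called between the genotypes.

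Markers of other liver cells were counted too, where 3.46% of all genes were called higher in Alb-Cre and 10.9% in Alb-R3. A count of 1 in so short a list says little beside these shares. In Alb-Cre, 4 of 9 stellate cell markers and 1 of 5 cholangiocyte markers rose, and 0 of 10 Kupffer cell, 0 of 6 monocyte, 0 of 8 endothelial and 0 of 7 lymphocyte markers were called. In Alb-R3, 10 of 10 Kupffer cell, 2 of 6 monocyte, 6 of 8 endothelial, 8 of 9 stellate cell, 1 of 7 lymphocyte and 2 of 5 cholangiocyte markers rose. The Kupffer cell sum was 39.6 to 77.6 per 1000000 in Alb-Cre oil and 52.4 to 69.8 in Alb-Cre CCl4, and 25.0 to 33.9 and 89.6 to 391 in Alb-R3. The stellate cell sum went from 34.7 to 38.0 up to 57.6 to 86.4 in Alb-Cre and from 14.1 to 19.0 up to 34.3 to 115 in Alb-R3. The monocyte, endothelial, lymphocyte and cholangiocyte sums after CCl4 in Alb-Cre were 7.59 to 14.9, 71.8 to 122, 1.04 to 1.18 and 11.2 to 30.8 per 1000000. In Alb-R3 they were 10.3 to 119, 56.0 to 126, 1.46 to 8.19 and 20 to 175. Alb-R3 CCl4 replicate 1 gave the highest Kupffer cell, monocyte, lymphocyte and cholangiocyte sums and the lowest endothelial and stellate cell sums of its group. The sums of the other libraries of that group were 10.3 and 20.2 for monocytes, 1.46 and 2.68 for lymphocytes, 42.9 and 20 for cholangiocytes, 114 and 126 for endothelial cells and 92.5 and 115 for stellate cells. Without that replicate 9 of 10 Kupffer cell, 7 of 8 endothelial and 9 of 9 stellate cell markers rose in Alb-R3. With single libraries left out in turn, the Alb-Cre stellate cell count was 2 to 4, and the Alb-R3 counts were 7 to 10 for Kupffer cells, 1 to 4 for monocytes, 5 to 7 for endothelial cells, 7 to 9 for stellate cells, 0 or 1 for lymphocytes and 1 or 2 for cholangiocytes. The oil groups differed too. The endothelial sum was 63.6 to 79.4 in Alb-Cre oil and 35.7 to 36.8 in Alb-R3 oil. The median log2 difference of Alb-R3 from Alb-Cre was -1.11 over the endothelial and -1.17 over the stellate cell markers after oil, and 0.09 and 0.21 after CCl4. Over the Kupffer cell markers it was -1.03 after oil and 1.58 after CCl4. Over the monocyte, lymphocyte and cholangiocyte markers it was -0.49, -0.6 and 0.17 after oil and 1.77, 0.26 and 0.6 after CCl4. None of these markers was called. After oil unadjusted limma p was under 0.05 for 7 of 8 endothelial, 7 of 9 stellate and 4 of 10 Kupffer cell markers (6.49% of all genes). After CCl4 it was for 10 of 10 Kupffer cell and 2 of 6 monocyte markers (7.77%). The cholangiocyte marker Cftr was listed at 0 in 11 of the 12 libraries, the exception being Alb-Cre CCl4 replicate 1. Krt19, Krt7 and Epcam were at most 5.86 normalized counts in any library, so Spp1 and Sox9 made up most of the cholangiocyte sums. The part of these cells in the rise of the spindle and cytokinesis genes was not tested.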

How the data were processed

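RNA-seq of purified hepatocytes was analysed from 12 libraries in 4 groups of 3. The deposited table gives, per Ensembl gene and library, a normalized count, a signal that need not be whole, and an FPKM value; the scaling the authors used is not stated in the labels. Per the submitters' processing notes, the tools were kallisto 0.44.0 and edgeR and the build GRCm38.p6, with no role stated. The normalized signal deposited by the authors was put on the log2(value + 1) scale and fitted with limma 3.58.1 (trend, R 4.3.3), over 20244 genes that reached 1 in 3 or more libraries, in a model of 4 group means with 8 residual degrees of freedom. P-values of 5 comparisons were adjusted by Benjamini-Hochberg, with a threshold of 0.05. Low values were whole multiples of the value of 1 read (tolerance 0.02) for 69.8% to 74.6%, too few to recover counts. About 28000000 to 39600000 reads per library were estimated from them. The FPKM values the authors deposited were used for levels between genes, as log2(FPKM + 0.1) where logged.

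Symbols came from a gene name table (35574 of 35709 identifiers matched) and positions from GENCODE M21. The fit was tested on simulated data. Library pairs of a group differed by more than counting noise. Values in every library are given for the 7 cytokinesis genes and, in each other role, for the 2 largest and the 1 smallest Alb-Cre change (all genes in roles of 3 or fewer), and for genes called in neither CCl4 comparison. From the other lists, up to 2 genes of largest change in each direction are named. The genes and lists were chosen with earlier results of these data known. Alternatives were other scaling (quantile), FPKM, pseudocounts of 0.1 and 5, other filters, no trend, library weights, a replicate block, only the groups compared, a threshold of 0.01 and leaving out each library. Leaving out Alb-Cre CCl4 replicate 2 and Alb-R3 CCl4 replicate 1 together was added after seeing the data.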

Additional observations from a re-analysis of the deposited data

How the results depend on the processing

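The count of called spindle and cytokinesis genes kept within 30 to 35 of 36 in Alb-Cre and 33 to 35 in Alb-R3 under every alternative. When single libraries were left out it was 30 to 34 in Alb-Cre and 33 to 35 in Alb-R3. In 1 such fit, without Alb-R3 CCl4 replicate 2, Numa1 was called lower (-0.78). Without both low CCl4 libraries the counts were 34 and 35. Between genotypes 0 genes were called throughout, except 1 after oil with library weights. The gap between cytokinesis and other genes in Alb-Cre (-0.56) moved to -1.01 with library weights, -0.26 on FPKM, -0.68 with a pseudocount of 0.1 and -0.29 with 5, and ranged from -0.78 to -0.34 with single libraries left out. In Alb-R3 (0.16) it was 1.14 and -0.31 with those pseudocounts. The Numa1 change in Alb-Cre, -0.01, turned to 0.05 with quantile scaling, 0.22 on FPKM, and 0.08 without both low CCl4 libraries, and ranged from -0.08 to 0.10 with single libraries left out (0.10 lacking Alb-Cre oil replicate 1, 0.08 lacking Alb-Cre CCl4 replicate 2). The cause of these shifts was not tested. The replicate numbers gave no sign of pairing (3 of 18 same-numbered pairs had a correlation over 0.1, and 4 of 12 libraries correlated best with their own number). With 3 libraries per group this check cannot exclude pairing. A fit with a replicate block called 31 and 33 genes in Alb-Cre and Alb-R3, and 0 in the other comparisons. Over the fits of 78 single-gene results (the 36 genes in both CCl4 comparisons and the genotype differences with the highest and lowest values), 1806 stayed on their side of the threshold, 48 lost the call, 11 gained it and 5 changed sign. The calls lost were those of Kif23 and Kif18a in Alb-Cre and of Sass6 in both genotypes. Over all genes, calls ranged from 453 to 2703 in Alb-Cre, 1602 to 5117 in Alb-R3, 27 to 663 after oil, 13 to 103 after CCl4 and 0 to 46 for the difference in response, the highest with library weights. The split of higher and lower calls was 547 and 234 with quantile scaling and 1181 and 105 on FPKM in Alb-Cre (700 and 200 in the fit reported), and 1723 and 1640, and 3186 and 582, in Alb-R3 (2198 and 1400). The number of libraries, 3 per group, limits the precision of every comparison.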
